A study of Rattus norvegicus with 16 samples.

Results

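The genes of hepatic fatty acid synthesis, together with a pair of patatin-like phospholipase genes, were followed in liver mRNA of male Lewis rats, a laboratory strain, aged 3, 9, 12, 18 and 24 months. The 10 genes were chosen by name: Acly, Me1, Acaca, Fasn, Elovl6, Scd1, Scd2, Srebf1, Pnpla3 and Pnpla5. They are 10 of 21489 genes that could be tested, and they were read by 19 probes. There were 3 samples at each of 3, 9, 12 and 18 months and 4 samples at 24 months, each hybridised to a one-colour array, so that 16 arrays were compared. The labels name no treatment, and all rats had free access to food and water in pathogen-free housing. The hour of tissue collection, whether food was withdrawn before it, and whether each sample is a separate animal are not given, so p-values measure the spread between these samples, which may in part be technical.

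Hepatocytes make fatty acids from surplus carbohydrate. Citrate leaves the mitochondrion and is split to acetyl-CoA by ATP citrate lyase (Acly), acetyl-CoA is carboxylated by acetyl-CoA carboxylase alpha (Acaca), and fatty acid synthase (Fasn) builds palmitate with NADPH supplied in part by malic enzyme (Me1). Elovl6 lengthens palmitate, the stearoyl-CoA desaturases Scd1 and Scd2 introduce a double bond, and Srebf1 encodes SREBP-1, the transcription factor that raises this programme after feeding and in response to insulin. Pnpla3 (adiponutrin) is a lipid droplet protein with a triglyceride hydrolase fold whose mRNA falls with fasting and recovers with refeeding, and Pnpla5 is a close relative.

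Values are log2 signals relative to the 75th percentile of each array, so a level of 0 equals that percentile. They are comparable between arrays for a given probe and not between probes. The percentile itself was 171 to 412 intensity units, and 52.47% to 65.18% of probes lay well above background on an array. No spot was saturated. All 10 genes passed the filter on dim probes. All 10 hepatocyte markers were well above background on every array. The mean correlation of an array with the others of its age was lowest for 12-month replicate 2 (0.962), 24-month replicate 4 (0.969) and 24-month replicate 3 (0.970). In bulk liver, fewer cells of a type and less RNA per cell cannot be told apart.

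The 2 phospholipase genes had the largest differences of the 10 between 9 and 3 months. At 9 months Pnpla3 stood 69.1-fold and Pnpla5 46.8-fold above 3 months, and at 24 months Pnpla3 stood 43.1-fold below 9 months with all arrays, a value that moved by over 1.5 times with single 24-month arrays left out. On the rn4 build named in the file headers, the Pnpla3 probe lies at chr7:122162823-122162882 on the plus strand and the Pnpla5 probe at chr7:122106543-122106602 on the minus strand, 56.3 kb apart. The genes therefore point away from each other, and in the RefSeq order (assembly GRCr8) no other protein-coding gene lies between them. The 250 bases before each start are shown because these neighbours moved together. Capitals mark the motifs searched on both strands: CCAAT (the NF-Y box) and GGGCGG (the GC box), on either strand as printed, beside CACGTG (the E-box) and TCACNCCAC (a sterol response element core), of which the windows of these 2 genes hold none. The sequences are from RefSeq, build GRCr8, at chr7:117173278-117173527, plus strand, and chr7:117137037-117137286, minus strand.
Pnpla3: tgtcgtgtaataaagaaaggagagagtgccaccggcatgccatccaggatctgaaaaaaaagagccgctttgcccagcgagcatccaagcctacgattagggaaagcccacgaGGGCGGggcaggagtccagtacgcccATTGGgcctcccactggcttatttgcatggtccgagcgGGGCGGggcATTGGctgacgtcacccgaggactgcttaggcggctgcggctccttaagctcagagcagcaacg
Pnpla5: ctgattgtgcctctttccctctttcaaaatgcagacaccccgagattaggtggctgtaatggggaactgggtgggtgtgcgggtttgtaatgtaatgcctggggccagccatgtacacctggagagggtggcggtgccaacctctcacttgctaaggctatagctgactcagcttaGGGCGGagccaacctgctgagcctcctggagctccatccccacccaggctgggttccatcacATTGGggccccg
The Pnpla3 window holds 2 NF-Y boxes and 2 GC boxes, and the Pnpla5 window 1 of each. No motif overlapped another. Across the 33469 promoter windows of the table, 34.0% hold CCAAT, 30.5% GGGCGG, 5.59% CACGTG and 0.974% TCACNCCAC.

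Pnpla3 read -4.25, -3.91 and -4.05 on the 3-month arrays, 1.92, 2.04 and 2.17 on those of 9 months, 0.52, -4.23 and -2.88 on those of 12 months, -3.52, -2.82 and -5.38 on those of 18 months, and -5.84, -3.14, -4.28 and -0.28 on those of 24 months. The 9-month arrays were high and close together, 12-month replicate 2 and 24-month replicate 4 were the next highest, and the other later arrays lay around the 3-month level. It was not well above background on 12-month replicate 3, 18-month replicate 4 and 24-month replicate 1. Pnpla3 averaged 2.04 ± 0.12 at 9 months and -4.07 ± 0.17 at 3 months (SD, n = 3 each), a rise of 6.11 on the log2 scale (SE 1.25, adjusted p 0.0119 in limma over all genes). Without 3-month replicate 1 the adjusted p was 0.0518, and without 9-month replicate 3 it was 0.0504. The fall at 18 months, against 9 months, was -5.95 (SE 1.25, adjusted p 0.00634), and that at 24 months, set against 9 months, was -5.43 (SE 1.17, adjusted p 0.00684). That fall was -6.47 without 24-month replicate 4, -4.61 without replicate 1 and -5.13 without replicate 3. The second Pnpla3 probe, 9.77 kb downstream, gave a rise of 5.38 at 9 months against 3 months and a fall of -4.55 at 24 months against 9 months.

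Pnpla5 read -1.08, -1.54 and -1.65 on the 3-month arrays, 4.01, 3.71 and 4.66 on those of 9 months, 2.25, -0.66 and 1.71 on those of 12 months, 1.51, 1.95 and 1.23 on those of 18 months, and -2.68, -0.46, -0.11 and 2.44 on those of 24 months. All 12-month and 18-month arrays lay above all 3-month arrays and below all 9-month arrays, and the 24-month arrays spread over both sides of the 3-month range. The rise at 9 months, against 3 months, was 5.55 (SE 0.96, adjusted p 0.0050), and the level at 18 months was still 2.99 above 3 months (SE 0.96, adjusted p 0.0388). The fall at 24 months, against 9 months, was -4.33 (SE 0.90, adjusted p 0.0056), with -5.20 without 24-month replicate 4 and -3.5 without replicate 1. The rise at 18 months against 3 months lost its call without any one array of the 3-month or 18-month groups or 9-month replicate 1, with adjusted p 0.0512 to 0.111. No slide or scan period held arrays of both these ages.

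Acly read 5.84, 5.75 and 5.61 on the 3-month arrays, 7.64, 7.56 and 7.70 on those of 9 months, 8.04, 6.08 and 6.98 on those of 12 months, 6.81, 6.87 and 6.09 on those of 18 months, and 4.80, 6.23, 5.15 and 7.52 on those of 24 months. Every 9-month array was above every 3-month array. Against 3 months the difference at 9 months was 1.90 (SE 0.58), a 3.74-fold higher level with an adjusted p of 0.0818 in limma. At 24 months Acly fell by 1.71 against 9 months (SE 0.55, adjusted p 0.0464). This call was lost without any one of 13 arrays (adjusted p 0.0544 to 0.12).

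Me1, the NADPH-forming malic enzyme of the cytosol, had the smallest standard error of the 10 genes. It read 2.55, 2.48 and 2.42 on the 3-month arrays, 3.43, 3.76 and 3.83 on those of 9 months, 2.60, 2.12 and 2.28 on those of 12 months, 2.78, 2.43 and 2.10 on those of 18 months, and 2.15, 1.91, 1.89 and 2.49 on those of 24 months. The 9-month arrays stood above all 13 others, and no array of a later age reached them. The rise at 9 months against 3 months was 1.19 (SE 0.20, adjusted p 0.0046), or 2.28-fold. Against 9 months, Me1 fell by 1.34 at 12 months (adjusted p 0.00362), by 1.24 at 18 months (adjusted p 0.00149) and by 1.56 at 24 months (adjusted p 0.000241). Its second probe gave 1.42 for 9 against 3 months and -1.95 for 24 against 9 months.

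Acaca read 4.58, 4.54 and 5.0 on the 3-month arrays, 5.23, 5.52 and 5.75 on those of 9 months, 6.10, 5.03 and 5.79 on those of 12 months, 5.99, 5.61 and 5.15 on those of 18 months, and 3.84, 4.90, 4.54 and 6.10 on those of 24 months. All arrays of 9, 12 and 18 months lay above all of 3 months, but no pair of ages passed the test in limma. The difference of 9 against 3 months was 0.79 (SE 0.45, adjusted p 0.391). The second Acaca probe read -1.74 on average at 3 months and between -1.85 and -1.11 at the other ages.

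Fasn, which assembles the palmitate chain, read 5.26, 4.85 and 5.34 on the 3-month arrays, 7.82, 7.72 and 8.01 on those of 9 months, 7.77, 5.16 and 6.07 on those of 12 months, 6.60, 6.26 and 5.11 on those of 18 months, and 3.34, 5.86, 5.08 and 7.51 on those of 24 months. The 9-month arrays were high throughout, 12-month replicate 2 lay within their range, 24-month replicate 4 came next, and 24-month replicate 1 was the lowest of all 16. The difference of 9 against 3 months was 2.70 (SE 0.83), or 6.50-fold, with an adjusted p of 0.0816. At 24 months Fasn fell by 2.40 against 9 months (SE 0.78, adjusted p 0.0489), a call that was lost without any one of 13 arrays (adjusted p 0.0536 to 0.129). The difference was -3.08 without 24-month replicate 4 and -1.70 without replicate 1. The second probe, upstream in the transcript, gave 2.46 for 9 against 3 months.

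Elovl6 acts after the synthase in the pathway. It read 0.60, 0.36 and 0.90 on the 3-month arrays, 2.01, 1.84 and 2.50 on those of 9 months, 2.77, 0.83 and 2.63 on those of 12 months, 2.78, 2.82 and 2.44 on those of 18 months, and 0.78, 2.69, 1.11 and 2.82 on those of 24 months. Its highest mean was at 18 months, where all 3 arrays lay above the 3-month arrays. The rise at 18 months, against 3 months, was 2.06 (SE 0.55, adjusted p 0.0167), and that at 9 months, against 3 months, was 1.5 (SE 0.55, adjusted p 0.156). The 18-month call was lost without 3-month replicate 2 (adjusted p 0.0604) or 18-month replicate 3 (adjusted p 0.0542). Arrays of 3 and 18 months shared no slide or scan period. The second probe of Elovl6 gave 1.36 for 9 against 3 months.

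The desaturase genes lie close together on chromosome 1, their probes 93.5 kb apart on rn4 at chr1:249459057-249459116, minus strand, for Scd1 and chr1:249365537-249365596, plus strand, for Scd2. RefSeq calls the gene of the first accession Scd and that of the second Scd2. The array gives the name Scd1 to the first probe and Scd to 4 others, of which 3 carry the Scd2 accession and were taken as Scd2. The 250 bases before each start are shown because the pair had the highest correlation across the 16 arrays of any 2 of the 10 genes (Pearson r 0.993). That value rests on the chosen Scd2 probe, whose course the other probes of the Scd2 accession did not follow. They are from RefSeq, build GRCr8, at chr1:253231732-253231981, minus strand, and chr1:253118127-253118376, plus strand, with capitals as above.
Scd1: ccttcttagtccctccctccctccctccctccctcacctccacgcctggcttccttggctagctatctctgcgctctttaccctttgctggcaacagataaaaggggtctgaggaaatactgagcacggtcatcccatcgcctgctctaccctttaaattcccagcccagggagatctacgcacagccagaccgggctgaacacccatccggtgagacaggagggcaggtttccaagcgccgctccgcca
Scd2: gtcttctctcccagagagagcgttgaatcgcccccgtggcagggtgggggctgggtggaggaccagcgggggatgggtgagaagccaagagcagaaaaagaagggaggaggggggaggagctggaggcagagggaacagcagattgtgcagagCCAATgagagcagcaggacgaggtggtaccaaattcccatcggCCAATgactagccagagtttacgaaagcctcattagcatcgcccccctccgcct
The Scd2 window holds 2 NF-Y boxes and the Scd1 window none of the motifs searched. Of 7 of the 10 genes with an entry in the table, 5 hold CCAAT, 5 hold GGGCGG, 0 hold CACGTG and 0 hold TCACNCCAC. This says only which letters stand in these windows.

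Scd1 read 3.90, 3.54 and 3.78 on the 3-month arrays, 7.28, 7.62 and 7.94 on those of 9 months, 6.09, 5.40 and 8.16 on those of 12 months, 6.71, 6.85 and 6.72 on those of 18 months, and 0.21, 2.88, 4.22 and 7.09 on those of 24 months. All arrays of 9, 12 and 18 months lay above the 3-month range, while the 24-month arrays covered 118-fold. Against 3 months the difference was 3.87 at 9 months (SE 1.19, adjusted p 0.083), 2.81 at 12 months (adjusted p 0.149) and 3.02 at 18 months (adjusted p 0.0838). At 24 months Scd1 fell by 4.01 against 9 months (SE 1.12, adjusted p 0.0251), or 16.1-fold. It was -5.17 without 24-month replicate 4, -2.88 without replicate 1 and -4.22 without replicate 3. Without 1 of the 9-month arrays or 24-month replicate 2, the adjusted p of that fall was 0.0585 to 0.0814.

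Scd2 read 0.15, -0.16 and 0.38 on the 3-month arrays, 3.40, 4.40 and 4.28 on those of 9 months, 2.37, 1.82 and 4.25 on those of 12 months, 3.06, 3.00 and 3.22 on those of 18 months, and -2.96, -0.73, 0.09 and 3.03 on those of 24 months. As for Scd1, the arrays of 9, 12 and 18 months were all above the 3-month range and those of 24 months ran from the lowest level of all to the 18-month level. Scd2 rose by 3.90 at 9 months against 3 months (SE 1.05, adjusted p 0.0478), and fell by 4.17 at 24 months against 9 months (SE 0.98, adjusted p 0.0107). The difference of 24 against 18 months was -3.24 (SE 0.98, adjusted p 0.0266). The 9-month call was lost without any one of 11 arrays (adjusted p 0.0509 to 0.149), and the call against 18 months without any one of 5 (adjusted p 0.0526 to 0.0746). The fall against 9 months was -5.23 without 24-month replicate 4 and -3.23 without replicate 1. The other 2 probes of the Scd2 accession did not follow this course. One, above background on every array, gave -0.51 for 9 against 3 months (adjusted p 0.135), -1.16 for 18 against 3 months (adjusted p 0.000626) and 1.03 for 24 against 18 months (adjusted p 0.000592), the last 2 called in the direction opposite to the values of the first probe. The other lay near background, with -0.06 for 9 against 3 months (adjusted p 0.964). With the mean of the probes, Scd2 gave 1.11 for 9 against 3 months (adjusted p 0.123), -1.44 for 24 against 9 months (adjusted p 0.0144) and -0.96 for 24 against 18 months (adjusted p 0.0652). Another desaturase probe, annotated to an Ensembl transcript and counted with neither gene, gave 0.08 (adjusted p 0.893). Whether the called Scd2 probe also reads Scd1 transcripts was not tested.

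Srebf1 encodes the regulator, and its 3 probes differed. The probe with the highest mean, for which no pair of ages passed with all arrays, read 6.20, 6.15 and 6.16 on the 3-month arrays, 6.72, 6.62 and 7.34 on those of 9 months, 6.73, 5.47 and 5.11 on those of 12 months, 6.06, 6.34 and 4.59 on those of 18 months, and 4.04, 4.93, 4.36 and 7.34 on those of 24 months. The 9-month arrays lay above the 3-month arrays, 3 of 4 arrays of 24 months lay below them, and 24-month replicate 4 matched the highest 9-month array. The difference of 9 against 3 months was 0.72 (SE 0.71, adjusted p 0.689), and that of 24 against 9 months was -1.72 (SE 0.67, adjusted p 0.0947). Without 24-month replicate 4 the difference against 9 months was -2.45 (adjusted p 0.0027) and that of 24 against 3 months was -1.73 (adjusted p 0.0248). A second probe with 10 spots gave 0.85 for 9 against 3 months and -1.70 for 24 against 9 months with all arrays, neither called. The remaining probe was above background on 2 arrays of 3 months, 3 of 9 months, 1 of 12 months and no array of 18 or 24 months. It was called lower at 18 months (adjusted p 0.0193) and 24 months (adjusted p 0.0239), each against 3 months, and at 18 months (adjusted p 0.0361) and 24 months (adjusted p 0.0321), each against 9 months. With the mean of the probes, the difference of 24 against 9 months was -2.02 (adjusted p 0.0411).

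**Figure D1:**
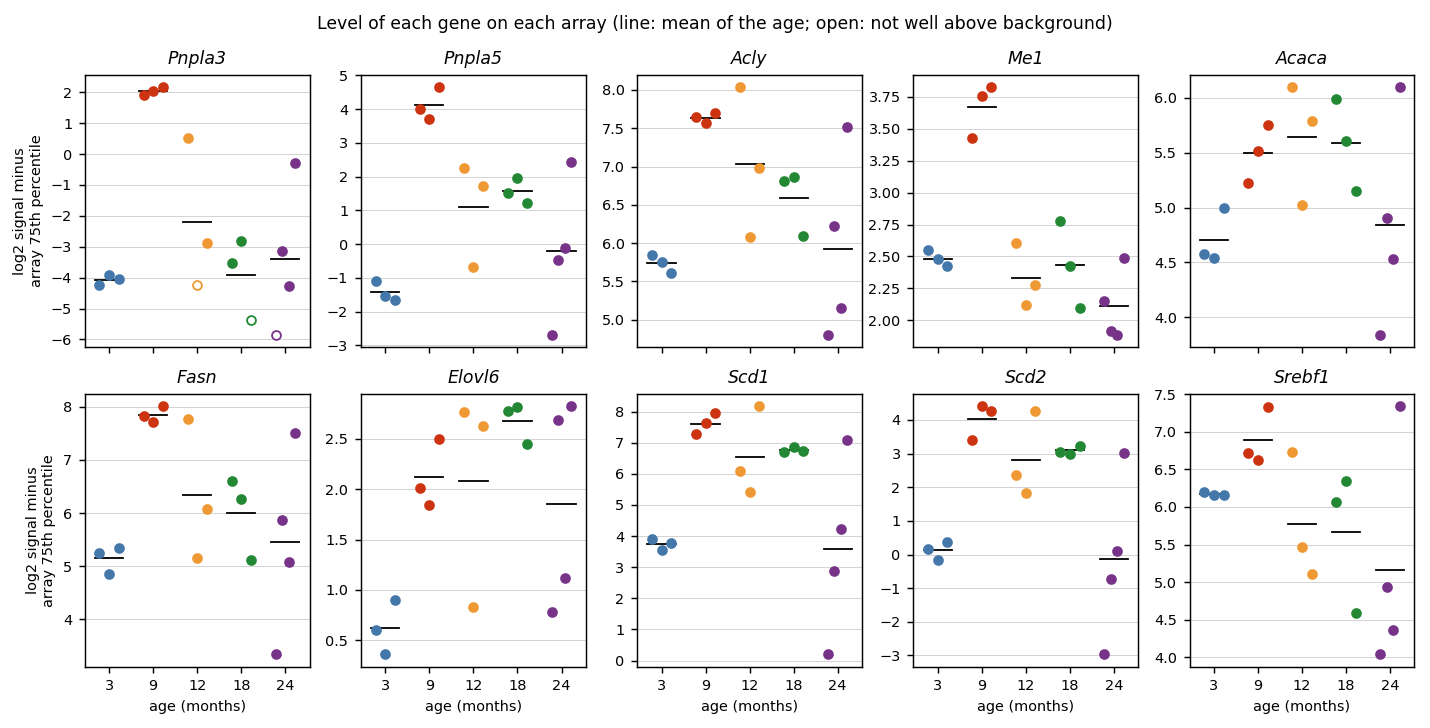
Log2 signal of each gene relative to the 75th percentile of the array (vertical axis, scaled per gene) against age in months, with 1 point per array and a line at the mean of the age. The 9-month points lie above the 3-month points in all 10 panels, and 24-month replicate 4 is the highest point of its age in all 10.

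The comparison of 9 with 3 months asks how the genes differ between young and full adult liver. All 10 genes were higher at 9 months with no overlap between the 3 arrays of each age. How many of all genes separate in this way was not counted. The median difference of the 10 genes was 2.30, beside 0.04 over all genes. Pnpla3, Pnpla5, Me1 and Scd2 rose in limma, which is 4 of 10 genes, where 1.94% of all genes tested rose and 3.2% fell. The Scd2 call was lost with the mean of its probes. The spread in this model is shared by all 5 ages, and the SD of most of these genes was largest at 12 or 24 months. With the 9-month and 3-month arrays fitted alone, where 19.2% of all genes were called, all 10 rose, with adjusted p 3.6e-05 for Pnpla3, 0.000264 for Fasn, 0.000184 for Scd1 and 0.0297 for Acaca. Without 24-month replicate 4 the count was 7, where 6.94% of all genes were called, and without 24-month replicate 1 it was 6, where 5.2% were. Without 3-month replicate 1 or 9-month replicate 3 it was 2, where 2.29% and 2.34% were. One 9-month array shared slide 1 with the 3 arrays of 3 months. Within that slide Pnpla3 differed by 6.10, Pnpla5 by 5.13, Fasn by 2.57, Acly by 1.83, Me1 by 1.27, Scd1 by 3.88, Scd2 by 4.28, Elovl6 by 1.22, Acaca by 0.81 and Srebf1 by 0.45. With slide as a random block, 5 genes rose, where 9.56% of all genes were called.

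Neutrophil markers differed between the same ages. The summed level of the 5 markers, in multiples of the 75th percentile, was 0.93 to 1.53 at 9 months and 15.8 to 18.4 at 3 months, and 3 to 4 of 5 were above background at 9 months and 5 of 5 at 3 months. The 10 hepatocyte markers summed to 5119 to 5474 at 9 months and 4470 to 5108 at 3 months. Of 8 adipocyte markers, 3 could be tested. Lep and Ucp1 were above background on 0 of 16 arrays, Adipoq and Plin1 on 1 each, Retn on 5, Fabp4 on 7 and Lpl on 12. The adipocyte sum was 10.6 to 12.5 at 9 months and 4.87 to 5.01 at 3 months, with Cfd above background on all 16 arrays. Of the 3 tested adipocyte genes Cfd rose (1.46, adjusted p 0.0139) and Fabp4 fell (-2.55, adjusted p 0.0317), and their median was -2.26. The part of other cell types in the difference was not tested.

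Against 3 months, the later ages gave few calls. At 12 months 0 of 10 genes passed in limma, where 10.7% of all genes passed in either direction. At an unadjusted p under 0.05 the count was 5, with no share over all genes counted at that threshold. At 18 months Pnpla5 and Elovl6 rose, 2 of 10, where 11.3% of all genes rose. No slide or scan period held arrays of both 3 and 18 months, so age and slide cannot be told apart in these 2 calls. With slide as a random block 0 of 10 were called, where 1.23% of all genes were, and with scan period as a block 0, where 12.1% were. At 24 months 0 of 10 passed, where 13.3% of all genes passed in either direction. At an unadjusted p under 0.05 the count was 1 (Elovl6, 1.23), again with no share counted. The median difference of the 10 genes from 3 months was 1.38 at 12 months, 0.87 at 18 months and 0.17 at 24 months, beside 0.02, -0.05 and -0.04 over all genes. Without 24-month replicate 4, the counts were 3 at 12 months, 4 at 18 months and 1 at 24 months. The shares of all genes called were then 13.4%, 25.7% and 15.6%. Without 12-month replicate 3 the count at 12 months was 2 (10.7% of all genes), and without 24-month replicate 1 it was 1 (10.5%). The count at 18 months was 0 without 3-month replicate 2 (15%) or 18-month replicate 3 (15.3%), and 4 without 24-month replicate 1 (23.4%). It was 1 without 3-month replicate 1 or 3, 9-month replicate 1, or 18-month replicate 1 or 4, where 15.1% to 21% were called.

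Against 9 months, the direction turned. Me1 fell at 12 months, 1 of 10 genes, where 3.1% of all genes fell. Pnpla3 and Me1 fell at 18 months, 2 of 10, where 9.54% of all genes fell. At 24 months Pnpla3, Pnpla5, Fasn, Acly, Me1, Scd1 and Scd2 fell, 7 of 10, where 10.9% of all genes fell and 5.98% rose. All 10 means were lower at 24 months, by a median of -2.06 beside -0.07 over all genes. In the 7 called genes no 24-month array reached a 9-month array, a separation not counted over all genes. The comparisons of 9 against 3 and 24 against 9 months share the 9-month arrays. Me1 fell at 12, 18 and 24 months with every array left out in turn. Slide 2 held 12-month replicate 2, the only 12-month array of the earlier of 2 scan periods, and 2 arrays of 9 months. Within slide 2 the difference of 12 against 9 months was -1.02 for Me1, -1.53 for Pnpla3, -2.08 for Pnpla5, -1.52 for Scd1 and -1.47 for Scd2. It was -0.30 for Srebf1 and -0.14 for Fasn, and the other way for Acaca (0.61), Elovl6 (0.51) and Acly (0.37). Within that scan period it was -1.07 for Me1. These values rest on 1 array of 12 months and are given with no test.

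Markers of other cell types differed between 24 and 9 months as well, where 5.98% of all genes rose and 10.9% fell. Of 6 macrophage markers Cd68 (0.76, adjusted p 0.00567) and Adgre1 (0.64, adjusted p 0.0146) rose, and their summed level was 149 to 195 at 24 months and 128 to 137 at 9 months. Of 5 neutrophil markers S100a9 and Fcnb rose, with a sum of 1.67 to 51.2 at 24 months and 0.93 to 1.53 at 9 months. Of 5 endothelial markers Stab2 and Clec4g rose. The hepatocyte sum was 3308 to 4957 at 24 months and 5119 to 5474 at 9 months. 24-month replicate 3 had both the highest neutrophil sum and the lowest hepatocyte sum. Without that array 5 of the 10 genes were called, where 14.8% of all genes were. The part of these cells in the result was not tested.

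The count of 7 at 24 against 9 months changed with the arrays included and with the model. It was 9 without 24-month replicate 4, where 22.2% of all genes were called. It was 4 without any one of the 9-month arrays or 24-month replicate 2, where 10.3% to 14.1% were. Fitted on the arrays of these 2 ages alone it was 3, where 8.52% of all genes were called. With slide as a random block, where 4.74% of all genes were called, it was 1 (Me1, adjusted p 0.0167), with Pnpla3 at -4.19 (adjusted p 0.142) and Scd1 at -3.65 (adjusted p 0.168). No slide held arrays of both ages, and the 24-month arrays had a scan day of their own, so slide and scan day cannot be told apart from age here. Fitted within the earlier scan period, which held all arrays of both ages, the adjusted p was 0.0578 for Fasn, 0.0563 for Acly and 0.0545 for Scd1, and Pnpla3 (0.00852), Pnpla5 (0.0144), Me1 (0.000979) and Scd2 (0.0297) were called. At 18 against 9 months 0 of the 10 were called with slide as a block, where 0.293% of all genes were called, and 0 with scan period as a block, where 9.18% were. Arrays of 9 and 18 months shared no slide or scan period. Without 24-month replicate 4 or 24-month replicate 1, the count at 12 months was 3, where 7.59% and 6.1% of all genes were called. At 18 months it was also 3, where 21.6% and 18.6% were. Without 12-month replicate 2 the count at 12 months was 2, where 10% were called.

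Among the 3 oldest ages 1 of the 10 genes passed the test, in 1 of 3 comparisons. For 18 against 12 months 0 of 10 genes passed in limma, where 1.38% of all genes passed in either direction. At an unadjusted p under 0.05 the count was also 0. Within the later scan period, which held all 18-month arrays and 2 of 12 months, Pnpla5 differed by 1.04 (adjusted p 0.537) and Elovl6 by 0.95 (adjusted p 0.46). For 24 against 12 months 0 of 10 passed, where 15.0% of all genes passed. At an unadjusted p under 0.05 the count was 2, with no share over all genes counted at that threshold. For 24 against 18 months Scd2 fell, 1 of 10, where 15.0% of all genes fell. That call was lost with the mean of the probes, and another Scd2 probe rose. No slide or scan period held arrays of both 18 and 24 months. Without 24-month replicate 4, 5 genes passed for 24 against 12 months, where 22.4% of all genes did. For 24 against 18 months 4 passed, where 28.8% of all genes did, Scd1 with -4.32 (adjusted p 0.00186). Without 12-month replicate 4 the count for 24 against 18 months was 2, where 26% of all genes passed. That count was 0 without any one 18-month array, 24-month replicate 1 or 24-month replicate 2, where 18.1% to 24% passed.

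**Figure D2:**
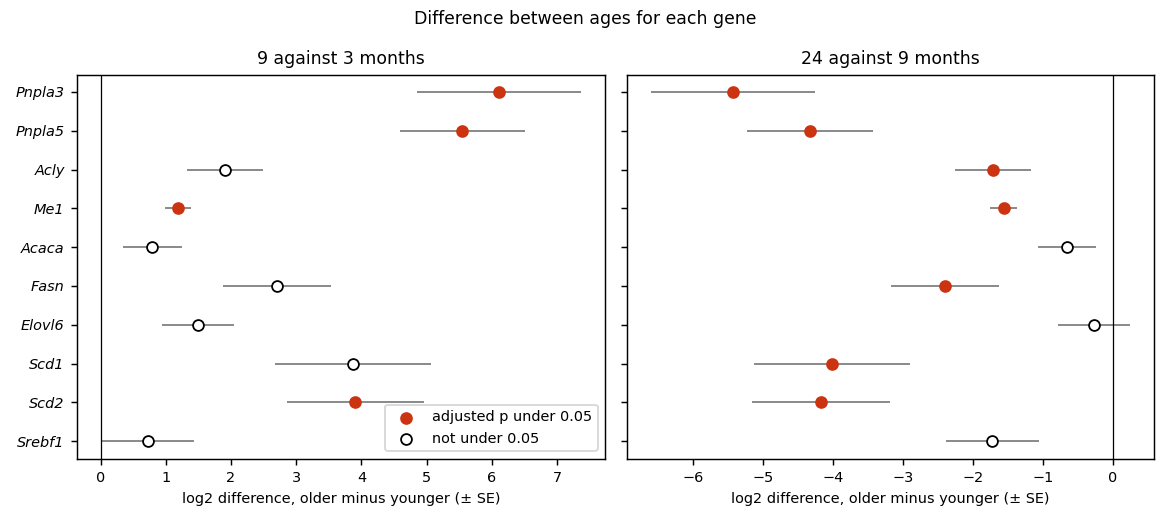
Difference of log2 level, older minus younger, with its standard error (horizontal axis) for each of the 10 genes, for 9 against 3 months on the left and 24 against 9 months on the right. Filled points passed in limma over all genes, 4 on the left and 7 on the right; Pnpla3 is farthest from 0 in both panels.

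Ordered by mean level, 9 months ranked highest for 8 of 10 genes, with Acaca highest at 12 months and Elovl6 at 18 months. Of the neighbouring ages in these orders, only 9 and 3 months for Me1 differed in the test (adjusted p 0.0046). Any difference among the 5 ages was called by limma's F test for Pnpla3 (adjusted p 0.00746), Pnpla5 (0.00461), Me1 (0.000408), Scd1 (0.0289) and Scd2 (0.0125), which is 5 of 10 genes, where 37.4% of all genes were called. Without 24-month replicate 4 the F test called all 10, where 43.2% of all genes were called. The call of Scd1 was lost in 10 of 28 alternatives, among them any one 3-month or 9-month array left out (adjusted p 0.0526 to 0.0613), slide as a random block (adjusted p 0.0638) and scan period as a block (adjusted p 0.0721).

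The spread between arrays of one age was itself large. The median SD of the 10 genes was 0.218 among the 3-month arrays, 0.298 among those of 9 months, 1.18 among those of 12 months, 0.393 among those of 18 months and 1.61 among those of 24 months. Over all genes it was 0.102, 0.175, 0.329, 0.151 and 0.302. At 24 months the range between the lowest and highest array was 118-fold for Scd1, 63.5-fold for Scd2, 47.3-fold for Pnpla3 and 18.0-fold for Fasn, against 1.52-fold for Me1.

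**Figure D3:**
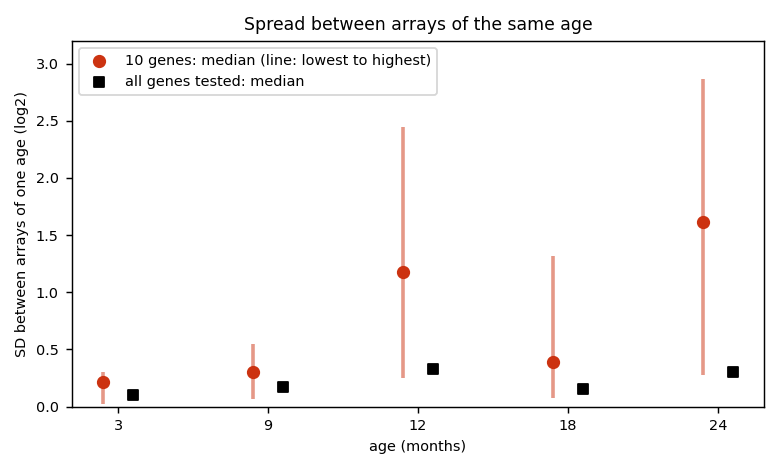
Standard deviation between arrays of one age on the log2 scale (vertical axis) against age in months, with the median of the 10 genes as a circle on a line from the lowest to the highest gene, and the median of all genes tested as a square. The circles are highest at 12 months (1.18) and 24 months (1.61).

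Single arrays carried much of that spread. 24-month replicate 4 was the highest of its age for 10 of 10 genes, with a median difference from the 3-month mean of 2.28, beside 2.20 to 2.42 for the 9-month arrays. 24-month replicate 1 was the lowest for 9 of 10, with a median of -1.52. The other 24-month arrays had medians of 0.34 and -0.12. At 12 months replicate 2 was the highest for 8 of 10 with a median of 2.28, and replicate 3 the lowest for 9 of 10 with 0.27. The 75th percentile was 195 units on 24-month replicate 4, against 325 to 412 on the others of its age. On 12-month replicate 2 it was 171, against 192 and 217. 24-month replicate 4 also had the lowest share of probes well above background (52.47%). The part of signal strength in the spread was not tested. Across the 16 arrays the 45 pairs of genes had Pearson correlations of 0.189 to 0.993, with a median of 0.765. After the age means were removed the median was 0.795 and the range 0.302 to 0.989. These points share arrays, scaling and slides. Scd1 with the chosen Scd2 probe was highest (0.993), Fasn with Acly followed (0.958), and Me1 with Elovl6 was lowest (0.189).

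**Figure D4:**
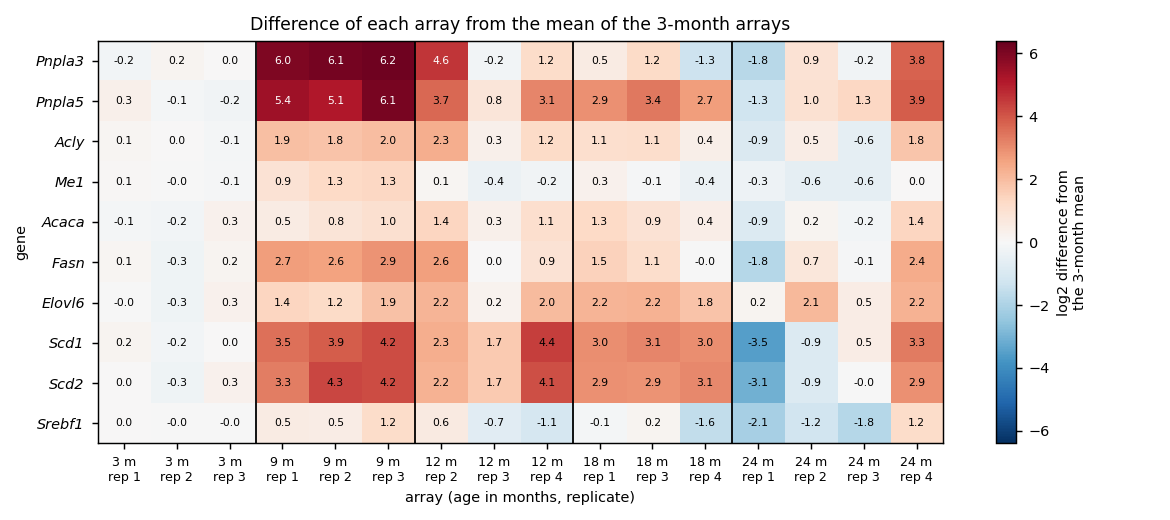
Log2 difference of each gene (rows) on each array (columns, by age and replicate) from the mean of the 3-month arrays. All 10 genes lie above the 3-month range on the 9-month arrays and on 12-month replicate 2, and 9 of 10 on 24-month replicate 4, while 9 of 10 lie below it on 24-month replicate 1.

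Genes known to respond to insulin and feeding are listed beside these differences. Igfbp1, a secreted binding protein that insulin represses, read 1.13, 1.30 and 0.71 at 9 months, against 5.20, 5.37 and 5.33 at 3 months, a fall of -4.25 (adjusted p 0.000145). Pck1 (-0.77, adjusted p 0.0326) of gluconeogenesis and its coactivator Ppargc1a (-1.56, adjusted p 0.0116) fell as well, and of 11 such genes 4 fell and 0 rose, where 3.2% of all genes fell and 1.94% rose. At 24 months against 9 months 4 rose and 1 fell, where 5.98% of all genes rose and 10.9% fell, with Igfbp1 up by 4.26 (adjusted p 5.18e-05). The mean of Igfbp1 was 4.2 at 12 months and 4.0 at 18 months, beside 5.3 at 3 months. The 18-month level was called lower than that of 3 months. Cpt1a, which admits fatty acids to mitochondria, differed by 0.23 at 9 months against 3 months (adjusted p 0.89). The list's median was 0.23 for 9 against 3 months and 0.81 for 24 against 9 months.

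Igfbp1 read 5.48 on 24-month replicate 4, the highest array of its age for 10 of the 10 genes. It read 5.37 on 12-month replicate 2, the highest of its age for 8 of 10. Both readings were near the 3-month level of Igfbp1. Feeding state was not recorded, and its part in the result was not tested.

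Clock genes divided the arrays differently. Dbp, a clock output factor, read -0.41, -0.55 and -0.11 at 9 months, against -0.89, -0.73 and -0.14 at 3 months, and between 2.91 and 5.50 on the 10 arrays of 12, 18 and 24 months. For 9 against 3 months 1 of 13 clock genes fell (Nr1d2) and 0 rose, where 3.2% of all genes fell and 1.94% rose. The list median was 0.00. For 24 against 9 months 8 rose and 3 fell, with Per3 up by 4.40 (adjusted p 1.29e-06), Bhlhe41 by 3.78 (adjusted p 0.000105) and Tef by 2.16 (adjusted p 5.18e-05), and all 13 were called by the F test, where 37.4% of all genes were. Over all genes 5.98% rose and 10.9% fell at 24 against 9 months. Every comparison of 12, 18 or 24 months with a younger age of 3 or 9 months thus spans a difference in clock genes. Lipogenic mRNAs also cycle over the day in rodent liver, and the part of the hour of collection in the result was not tested.

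**Figure D5:**
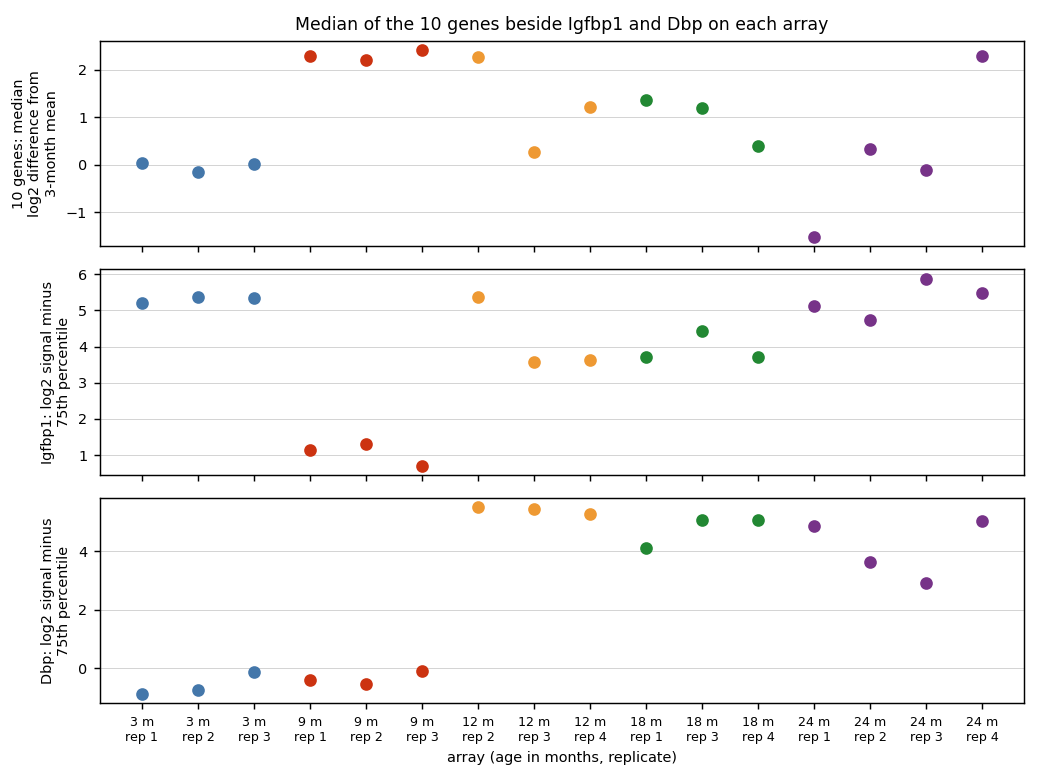
Each of the 16 arrays by age and replicate (horizontal axis), with the median log2 difference of the 10 genes from their 3-month means in the top panel and the log2 signal of Igfbp1 and Dbp in the panels under it. Igfbp1 is lowest on the 9-month arrays, and Dbp is low on the arrays of 3 and 9 months.

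For 9 against 3 and 24 against 9 months the called partner genes of the pathway moved in the direction of the 10 genes. The 15 measured include suppliers of substrate and NADPH and enzymes that lengthen or desaturate fatty acids. At 9 months against 3 months their median was 0.46 beside 0.04 over all genes. Of them 3 rose and 0 fell, where 1.94% of all genes rose and 3.2% fell. They were pyruvate kinase Pklr (1.54, adjusted p 0.0314) and the desaturases Fads1 (1.14, adjusted p 0.0156) and Fads2 (1.45, adjusted p 0.0142). At 24 months against 9 months 6 fell and 0 rose, where 10.9% of all genes fell, among them Pklr (-1.87, adjusted p 0.00323), Fads1 (-1.11, adjusted p 0.00524) and the elongase Elovl5 (-1.32, adjusted p 0.000598). The list's median was -0.81. Elovl1, another elongase, differed by -0.26 (adjusted p 0.272).

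SREBP processing and the other transcription factors were followed with 15 genes. Of all genes tested, 1.94% rose and 3.2% fell at 9 against 3 months, and 5.98% rose and 10.9% fell at 24 against 9 months. Of these 15 regulators 0 rose and 0 fell at 9 months against 3 months in limma, with a median of 0.21, and 1 fell at 24 months against 9 months. This was Insig2, which retains SREBPs in the endoplasmic reticulum, by -1.51 (adjusted p 0.00713). Ppargc1b, a coactivator of SREBP-1, differed by 0.64 at 9 months against 3 months (adjusted p 0.172). Of 11 genes of sterol synthesis and its control, the programme of the related factor SREBP-2, 0 rose and 0 fell at 9 months against 3 months in limma, with a median of 0.54. Fdps, which makes farnesyl diphosphate, differed by 0.88 (adjusted p 0.094). At 24 months against 9 months Dhcr7 fell (-1.02, adjusted p 0.0285) and 0 rose, while Fdps (-0.78, adjusted p 0.0582), Lss (-0.15, adjusted p 0.687) and Cyp51 (0.20, adjusted p 0.701) did not pass.

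New fatty acids are assembled into triglycerides and stored in droplets. The shares over all genes were 1.94% higher and 3.2% lower at 9 against 3 months, and 5.98% higher and 10.9% lower at 24 against 9 months. Of 11 assembly genes 0 rose and 0 fell at 9 months against 3 months in limma, with a median of 0.01. At 24 months against 9 months 1 rose and 2 fell, Mogat2 by -1.12 (adjusted p 0.000688) and Gpam, which starts glycerolipid synthesis, by -1.0 (adjusted p 0.0157). Dgat1 (0.03, adjusted p 0.887) and Agpat2 (-0.38, adjusted p 0.205) did not pass. Of 14 measured genes of lipid droplets and lipases, Fitm2, which promotes droplet formation, rose at 9 months against 3 months (1.11, adjusted p 0.00351) and 0 fell. At 24 months against 9 months G0s2, an inhibitor of the lipase Pnpla2, fell by 1.34 (adjusted p 0.0221), Fitm2 by 0.57 (adjusted p 0.0341) and Cidec also fell, and 1 rose. That one was Pnpla7 (0.94, adjusted p 0.006), a relative of the Pnpla pair with a lysophospholipase role. Pnpla6 differed by 0.33 (adjusted p 0.146).

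Among 20496 other genes, those whose levels over the 16 arrays were most like Pnpla3 were TC604928 (r 0.971), TC596230 (r 0.966), Sult4a1 (r 0.958), Apba3 (r 0.953) and Ssx2ip (r 0.923). These are the highest of many values. TC604928, an array name with no symbol, lies at chr7:122155480-122155539 on rn4, 7.34 kb from the Pnpla3 probe, and the array describes it as similar to mouse adiponutrin. Sult4a1 is the protein-coding neighbour of Pnpla5 on its other side in the RefSeq order. It averaged -0.98 ± 0.23 at 9 months and -6.20 ± 0.49 at 3 months (SD, n = 3 each). It was not well above background on any 3-month array, so that the rise is at least 14.2-fold against the lowest well-above-background signal. Sult4a1 was picked by its likeness to Pnpla3 over these same arrays, so no test of the rise is given. The next genes along the chromosome did not pass in limma for 9 against 3 months. Samm50, beyond Pnpla3, differed by 0.37 (adjusted p 0.558), Parvb by 0.22 (adjusted p 0.646), and Efcab6, beyond Sult4a1, by 2.57 (adjusted p 0.186) for 9 against 3 months. Around the desaturases, Bloc1s2 differed by -0.29 (adjusted p 0.557) and Ndufb8 by 0.20 (adjusted p 0.702). For 24 against 9 months Efcab6 differed by -3.09 (adjusted p 0.0395 in limma), while Samm50 and Parvb did not pass. These neighbours were chosen after values were seen.

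Most like Fasn were TC618872 (r 0.954), TC596230 (r 0.954), TC604928 (r 0.927), Tsen54 (r 0.922) and Polb (r 0.917). TC596230 lies at chr10:89445997-89446057 on rn4, 24.9 kb from the Acly probe, and has no gene symbol here. Most like Srebf1 were Tex2 (r 0.948), TC630568 (r 0.933), Fggy (r 0.929), Scly (r 0.918) and Vkorc1 (r 0.911). For 9 against 3 months TC596230 differed by 3.69, TC618872 by 0.79 and Scly by 0.78. They were picked by likeness over these same arrays, so no test is given.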

How the data were processed

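Per the file headers, the authors made the deposited intensity values (processed signal, mean signal, local background) with Agilent Feature Extraction 10.7.3.1 from one-colour arrays annotated to rn4, with no normalization between arrays. Flags for background, saturation and outliers are other columns, per the file headers. The log2 values for the whole series, deposited by the authors, are ones whose normalization is not given in the sources used here (correlation with the scanner values 0.997 to 1.000), and they served as an alternative. The labels' protocols name a labelling kit for microRNA although the array measures mRNA.

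Processed signals, as log2, were set relative to the array's 75th percentile. Outlier-flagged spots were left out (79 values stayed missing), and replicate spots were averaged. Probes qualified when every array of some age lay well above background: 25696 of 41012 did, and 19858 did so on all 16 arrays. The probe with the highest mean stood for its gene, for 21489 genes. By accession, RefSeq named 18028 probes, while 20887 kept the array's name and 2097 stayed unnamed. Promoters are those of RefSeq (GRCr8), matched by symbol for 7 of 10 genes.

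A mean per age was fitted over all 16 arrays with limma 3.58.1 in R 4.3.3. Pairs of ages and any age difference were tested, two-sided, with Benjamini-Hochberg adjustment over all genes at 0.05, and the procedure was tested on simulated data. The 10 genes and all lists were chosen with earlier results of these data known. From each list other than cell markers up to 4 called genes with the smallest adjusted p of the F test are named, and the 5 genes most like Pnpla3, Fasn and Srebf1 by correlation. Other names complete small counts and were chosen after their values were seen. Dbp and Igfbp1 are given by array, chosen likewise. Some genes of the lists are not reported here. Depth here is signal over background, and precision is limited by the number of arrays. Alternatives were quantile normalization, normexp (offset 50), the deposited series-wide values, no filter, a stricter filter (all arrays), averaged probes, each probe alone, outlier spots kept, slide, scan period or replicate number as a block, the compared ages alone, a change of at least 2-fold, and leaving out each array. Leaving out 12-month replicate 2 and 24-month replicate 4 together was added after seeing the data. Python 3.11.15 with pandas 2.3.3 and matplotlib 3.10.9 made the figures.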

Additional observations from a re-analysis of the deposited data

How the results depend on the processing

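No called difference between ages of the 10 genes changed direction under the alternatives when each gene was read by its chosen probe or by the mean of its probes. Read by another probe, Scd2 gave 1.03 (adjusted p 0.000592) for 24 against 18 months, where the chosen probe gave -3.24. Leaving out each array gave 2 to 7 called genes for 9 against 3 months, 0 to 3 for 12 against 3, 0 to 4 for 18 against 3, 0 to 1 for 24 against 3, 1 to 3 for 12 against 9, 2 to 3 for 18 against 9, 4 to 9 for 24 against 9, 0 to 0 for 18 against 12, 0 to 5 for 24 against 12, 0 to 4 for 24 against 18 and 4 to 10 for any age difference. Over the same settings the share of all genes called was 15% to 30.1% for 18 against 3 and 18.1% to 32.1% for 24 against 18. Percentages in brackets below give the share of all genes called. With the compared ages alone the counts were 10 for 9 against 3 (19.2%), 6 for 18 against 3 (47%) and 7 for 18 against 9 (32%). They were 3 for 24 against 9 (8.52%) and 0 for 24 against 18 (19.4%). With slide as a random block (correlation 0.687) they were 0 for 18 against 3 (1.23%) and 0 for 18 against 9 (0.293%). For 24 against 9 the slide block gave 1 (4.74%) and for 24 against 18 it gave 0 (4.53%). Scan period (an earlier and a later set of scan days in the file headers) was also used as a block. The counts were then 2 for 12 against 3 (23.7%), 0 for 18 against 3 (12.1%), 0 for 18 against 9 (9.18%) and 0 for 24 against 18 (13.1%). With normexp they were 1 for 18 against 3 (6.35%) and 2 for 12 against 9 (0.772%). With no filter 1 remained for 18 against 3 (14.1%). A filter on all arrays gave 1 for 18 against 9 (18.9%) and 2 for 24 against 18 (22.4%). Quantile normalization and the deposited series-wide values gave 2 each for 24 against 18 (26.3% each), and the mean of a gene's probes 0 (24.9%). Without 12-month replicate 2 and 24-month replicate 4 the counts were 7 for 9 against 3 (10.8%) and 2 for 12 against 3 (17.8%). They were 5 for 18 against 3 (34.6%) and 1 for 24 against 3 (22.6%). Against 9 months they were 5 at 12 months (13.9%), 6 at 18 months (31.6%) and 9 at 24 months (31%). For 24 against 12 the count was 2 (24.3%), for 24 against 18 it was 6 (36.5%) and for any age difference 10 (54.2%). The cause was not tested. Over 25 pairs of arrays with the same replicate number the correlation of deviations was -0.300 to 0.119 (median -0.045). Over 77 pairs with different numbers it was -0.274 to 0.258 (median 0.013). Whether the numbers pair the samples cannot be told from these values. With the replicate block the counts were 1 for 18 against 3 (14.4%), 5 for 24 against 9 (13.7%) and 2 for 24 against 18 (20.3%).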
